A study of Mus musculus with 12 samples.

Results

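The 10 genes described here encode lysosomal cathepsins (*Ctsa*, *Ctsb*, *Ctsc*, *Ctsd*, *Ctsh*, *Ctsl*, *Ctss* and *Ctsz*) and the mouse lysozymes (*Lyz1* and *Lyz2*). They were taken as all probe sets whose annotation gives 1 of these symbols and no other, which was 23 of 45101 probe sets, or 10 of the 18193 genes with such a probe set. Cathepsins are proteases that cut proteins in the acid interior of lysosomes. Lysozyme cuts the peptidoglycan of bacterial walls and is stored or secreted by macrophages and by Paneth cells of the gut. In nervous tissue, microglia express several cathepsins and lysozyme strongly, while neurons, glia and the pigment epithelium also carry the general lysosomal cathepsins.

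Total RNA of mouse retina was hybridized to 12 Affymetrix 430 2.0 arrays, with 3 arrays for each of 4 groups. The control retinas were of the genotype *Otx2* flox/flox; Crx-Cre-, at P1 and P12, and the *Otx2* CKO retinas were *Otx2* flox/flox; Crx-Cre+ at the same ages, so that every mouse carried the floxed gene. Cre is driven in this line by the *Crx* promoter, which is active in cells of the photoreceptor lineage, so that deletion in other cells is not set by this design. The arrays came from 3 numbered experiments at each age, and whether an array held 1 animal or a pool is not stated, so that p-values measure the spread between these arrays. The *Otx2* signal was 803 to 1058 in the P12 control arrays and 108 to 245 in the P12 *Otx2* CKO arrays, and at P1 it was 283 to 376 and 108 to 154. The position of that probe set relative to the deleted stretch was not checked. Retinal neurons were present by their markers, since the summed signal of 9 retinal genes was 16925 to 24728 in the P12 control arrays and 6327 to 9308 in the P12 *Otx2* CKO arrays. All values are linear array signals, for which 3 arrays a group limit the precision. A log2 change is the difference of mean log2(signal + 16), which understates the change of dim genes. A fold against a mean under 50 is uncertain in size, since no background level was given with the signals. Tests were limited to probe sets with a mean of at least 50 in 1 of the compared groups, and a call needed a Benjamini-Hochberg adjusted p under 0.05 in limma.

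At P12, 6 of the 10 genes were higher in the *Otx2* CKO retina and none was lower. These were *Lyz1*, *Lyz2*, *Ctss*, *Ctsz*, *Ctsd* and *Ctsc*, with log2 changes of 1.08 to 3.67. By their brightest sets *Lyz1* and *Lyz2* had control means of 31.1 and 48.7, under the signal limit. They were tested through the *Otx2* CKO group alone, so that the limit favoured a rise. *Ctsb*, *Ctsh*, *Ctsl* and *Ctsa* had log2 changes of 0.39 to 0.69 that did not pass. Of all genes tested at this age 16.1% were called higher and 5.09% lower, and the median log2 change was 0.39, against 1.13 for the 10 genes. By probe set 9 of the 23 were higher and 17 were bright enough to be tested, where 14.2% of all probe sets tested were higher. The 3 arrays of each genotype did not overlap for the same count of 6 genes, and 23.7% of all genes were apart in this direction. The signals were not scaled between arrays, and 3027 probe sets were called higher and 971 lower as deposited, against 1352 and 1450 after quantile normalization. The count of genes called among the 10 was 5 after quantile normalization, 4 after trimmed mean or spike scaling and 3 after median scaling or with P12 fitted alone. Over all probe sets, quantile normalization called 1352 of 16995 higher, trimmed mean scaling 1247 of 16993 and spike scaling 1207 of 18092. Median scaling called 798 of 17007 higher, and the fit of P12 alone 377 of 21390. Leaving out *Otx2* CKO replicate 2, or replicate 1 or 3 of the controls, gave 4 genes, and leaving out control replicate 2 gave 9, with *Ctsa*, *Ctsb* and *Ctsl* added. Without control replicate 2, 5011 of 21534 probe sets were called higher, against 3027 of 21390 with all arrays. Without *Otx2* CKO replicate 2 it was 4044 of 22378. Without control replicate 1 it was 2398 of 21365, and without control replicate 3 it was 1540 of 21558. None of the 10 genes was lower in any of these fits. In a whole retina, a change in the number of cells of a type and a change in RNA per cell cannot be told apart.

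**Figure D1:**
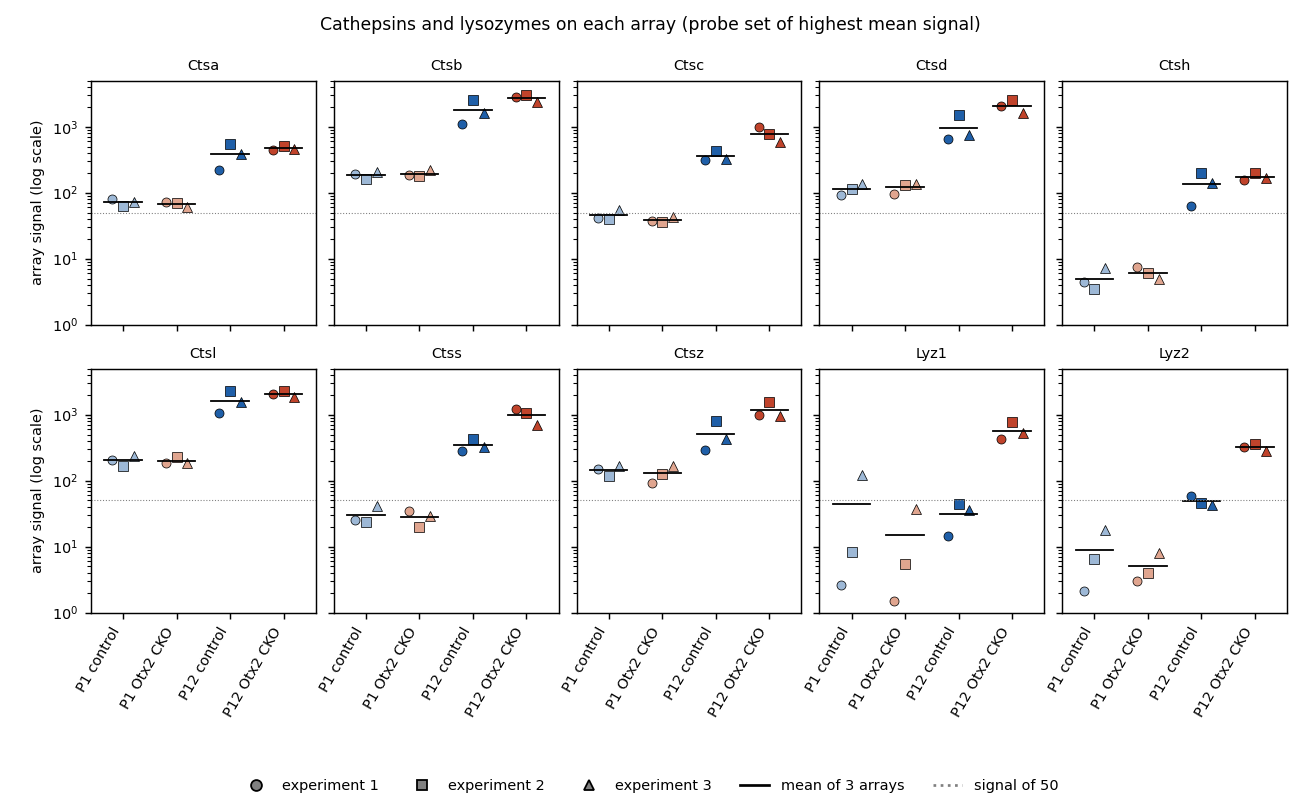
Array signal (log scale) of the 10 genes, each by its probe set of highest mean signal, with symbols for the experiment number, a bar for the mean of 3 arrays and a dotted line at a signal of 50. At P12 the *Otx2* CKO arrays lie apart from the control arrays for *Ctsc*, *Ctsd*, *Ctss*, *Ctsz*, *Lyz1* and *Lyz2*, while those of *Ctsa*, *Ctsb*, *Ctsh* and *Ctsl* overlap, and at P1 no tested gene is apart.

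**Figure D2:**
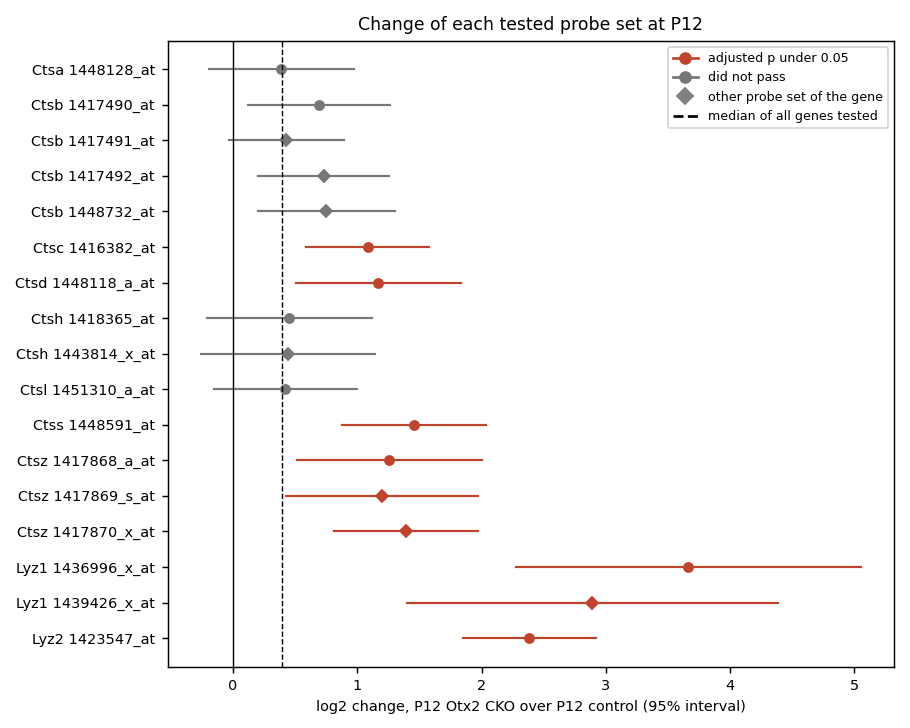
Log2 change at P12 with its 95% interval for the 17 probe sets tested, red where the adjusted p was under 0.05, circles for the probe set of highest mean signal and diamonds for the others, with a dashed line at the median of all genes tested (0.39). The lysozyme sets lie furthest to the right, and the intervals of *Ctsa*, *Ctsh* and *Ctsl* include 0.

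*Ctss* and *Ctsc* are the members best known from immune cells. Cathepsin S, a cysteine protease that works also at neutral pH, trims the invariant chain of MHC class II molecules in macrophages and microglia. Cathepsin C, a dipeptidyl peptidase, activates the granule serine proteases of leukocytes. In control retina at P12 the *Ctss* signal was 286, 430 and 328, against 1229, 1059 and 703 in *Otx2* CKO retina. The lowest *Otx2* CKO array was thus above the highest control array. The fold of the means was 2.87, with a log2 change of 1.46 (SE 0.27, n = 3 and 3 arrays, adjusted p = 0.00274 from limma). The call for *Ctss* held under each of the alternatives run, with adjusted p-values up to 0.0481. For *Ctsc* the controls had 316, 423 and 328 and the *Otx2* CKO retinas 985, 766 and 593, again without overlap. Its mean was 2.20-fold higher (log2 change 1.08, SE 0.23, adjusted p = 0.00633 from limma). The *Ctsc* call was lost with median scaling (adjusted p = 0.138) and with P12 fitted alone (0.124). Another pair of *Ctsc* probe sets stayed below the signal limit on every array and was not tested.

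The promoters of *Ctss* and *Ctsc* are shown because these genes rose together and are expressed by myeloid cells. Their windows, 250 bases before to 50 after the RefSeq start on GRCm38.p6, each hold 1 match to AGGAAGT or its reverse complement ACTTCCT, the core read by ETS factors such as PU.1 (*Spi1*), the main regulator of macrophage genes. The match is in capitals. It starts 151 bases before the *Ctsc* start (chr7:88277835-88278134, plus strand) and 2 bases before the *Ctss* start (chr3:95526536-95526835, plus strand).
*Ctss*: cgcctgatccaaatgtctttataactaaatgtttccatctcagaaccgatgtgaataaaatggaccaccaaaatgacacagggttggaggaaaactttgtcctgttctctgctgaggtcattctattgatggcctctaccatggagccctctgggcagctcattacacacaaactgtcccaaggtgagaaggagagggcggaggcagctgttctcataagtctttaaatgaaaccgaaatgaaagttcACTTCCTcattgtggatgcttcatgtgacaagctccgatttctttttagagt
*Ctsc*: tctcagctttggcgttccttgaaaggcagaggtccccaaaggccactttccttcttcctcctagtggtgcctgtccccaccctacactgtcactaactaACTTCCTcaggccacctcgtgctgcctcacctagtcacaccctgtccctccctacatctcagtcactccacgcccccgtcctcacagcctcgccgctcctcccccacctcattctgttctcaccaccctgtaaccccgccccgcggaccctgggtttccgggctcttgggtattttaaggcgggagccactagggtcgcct
AGGAAGT was found on either strand in 4 of the 9 windows that RefSeq gives for 8 of the 10 genes, namely *Ctsc*, *Ctss*, *Lyz1* and *Lyz2*, and in 9.35% of all 32851 windows. The longer GAGGAAGT, which contains it, was in the *Ctsc* and *Ctss* windows and in 3.2% of all. Photoreceptor genes bound by CRX and OTX2 often carry TAATCC, and none of the 9 windows held it, against 7.06% of all. *Spi1* itself had mean signals of 19.8 in P12 control and 38.2 in P12 *Otx2* CKO retina, under the limit for a test.

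The lysozyme genes had the largest log2 changes of the group. *Lyz2* encodes the M lysozyme of macrophages and microglia, and *Lyz1* the P lysozyme of Paneth cells. *Lyz2* had signals of 58.2, 45.7 and 42.3 in control retina at P12, against 321, 363 and 282 in *Otx2* CKO retina. Every *Otx2* CKO array was far above the controls, and the fold of the means was 6.61 (log2 change 2.39, SE 0.25, adjusted p = 3.7e-05 from limma). This call held under each alternative run, with log2 changes of 1.91 to 2.70. The control mean was 48.7, under the signal limit, so that *Lyz2* was tested through the *Otx2* CKO group alone.

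For *Lyz1* the 3 probe sets did not agree. With set 1436996_x_at the P12 controls had 14.3, 43.6 and 35.4 and the *Otx2* CKO retinas 428, 760.4 and 534. With set 1439426_x_at these values were 2.5, 21.7 and 11.5, against 174, 181 and 193. The first rose by a log2 change of 3.67 (SE 0.64, adjusted p = 0.00201 from limma) and the second by 2.89 (SE 0.69, adjusted p = 0.0125 from limma). No fold is given, since the controls were too dim to set its size. Both sets passed the signal limit at P12 through the *Otx2* CKO group alone. In contrast, set 1450822_at stayed under 50 in all of them, at 17.0, 15.5 and 1.7 in control and 13.6, 11.2 and 16 in *Otx2* CKO retina. The suffix x_at marks sets with probes that can match other transcripts, and *Lyz1* and *Lyz2* are near-identical genes, so that which of them the x_at sets measured at P12 is uncertain. The study chose 1439426_x_at on these arrays for a list of strongly raised genes, so its call is not independent evidence of the direction. The first set was called under each alternative run, while the second lost its call in 5 of 20.

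The *Lyz1* and *Lyz2* promoters are shown to let the likeness of these neighbours be seen. Both lie on chromosome 10 and the minus strand of GRCm38.p6, at chr10:117292819-117293118 and chr10:117282223-117282522. Each holds 1 match to AGGAAGT, as ACTTCCT in capitals, starting 100 bases before the RefSeq start.
*Lyz1*: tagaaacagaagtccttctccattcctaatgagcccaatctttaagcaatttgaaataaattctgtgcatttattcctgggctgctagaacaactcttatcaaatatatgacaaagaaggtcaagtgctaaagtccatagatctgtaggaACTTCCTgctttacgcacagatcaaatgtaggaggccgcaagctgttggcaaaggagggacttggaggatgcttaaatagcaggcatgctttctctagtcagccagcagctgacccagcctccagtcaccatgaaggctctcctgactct
*Lyz2*: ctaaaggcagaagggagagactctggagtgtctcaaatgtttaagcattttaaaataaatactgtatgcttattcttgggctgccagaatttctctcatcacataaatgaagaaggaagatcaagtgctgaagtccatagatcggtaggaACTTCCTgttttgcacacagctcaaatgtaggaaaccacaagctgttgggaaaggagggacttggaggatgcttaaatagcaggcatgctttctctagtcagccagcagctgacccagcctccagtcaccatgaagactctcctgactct
A global alignment of these windows had identical bases in 82.5% of its 302 columns, with a longest shared run of 86 bases.

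At P1 the *Lyz1* x_at sets were high in the arrays of 1 experiment. Set 1436996_x_at had signals of 2.6, 8.2 and 121 in control retina and 1.5, 5.5 and 37.5 in *Otx2* CKO retina. Set 1439426_x_at had 1.2, 10.4 and 140.2 in the controls, against 0.1, 7.1 and 48.3. Both were thus high in the arrays of experiment 3 of both genotypes and low in the other 4 arrays. *Lyz2* was highest in the same arrays, at a low level, with 18 for the control, 8.0 for its *Otx2* CKO partner and at most 6.4 elsewhere at P1. A search made after these values were seen took every probe set with a mean of at least 50 in those arrays, of which the lower was at least 3 times the highest of the other 4 P1 arrays. It returned 9 probe sets, the *Lyz1* pair among them. The named others were *Fabp2*, the fatty acid binding protein of enterocytes, *Reg3b*, an antibacterial lectin of the gut, and *Defa31*, a defensin of Paneth cells. *Reg3b* was 356 and 117 in the experiment 3 arrays of the control and the *Otx2* CKO retina and at most 27.5 in the other P1 arrays. *Fabp2* was 170.4 and 39.1 there and at most 5.7 elsewhere at P1. Over the 9 sets the control array was 2.90 to 4.36 times the *Otx2* CKO array of the same experiment.

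Of 20 genes of intestinal epithelium, listed after these values were seen, 19 had a probe set, and 11 had both experiment 3 arrays above the other 4 at P1. The share of all genes in that order was not computed. Some of the 11 were dim, such as *Fabp1* (7.7 and 2.0) and *Agr2* (6.9 and 6.7). The summed signal of the 19 genes was 810.5 and 288 in the experiment 3 arrays of the control and *Otx2* CKO retina and 39.9 to 76.3 in the other P1 arrays. That sum includes *Reg3b* and *Fabp2*, already picked by the search. At P12 the pattern was different. The 7 other sets of the search were at most 32.9 in any P12 *Otx2* CKO array, where both *Lyz1* sets were above 170. *Fabp2* was 1.7, 1.2 and 3.5 there, and *Reg3b* 9.3, 12.8 and 1.4. With both P1 arrays of experiment 3 left out, the P12 change of 1436996_x_at had a smaller error (SE 0.33, adjusted p = 5.7e-05 from limma). The count called at P12 among the 10 genes was then 4, with *Ctsd* (adjusted p = 0.0513) and *Ctsz* (0.0533) just past the threshold. That fit called 1425 of 21390 probe sets higher at P12, against 3027 of 21390 with all arrays.

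**Figure D3:**
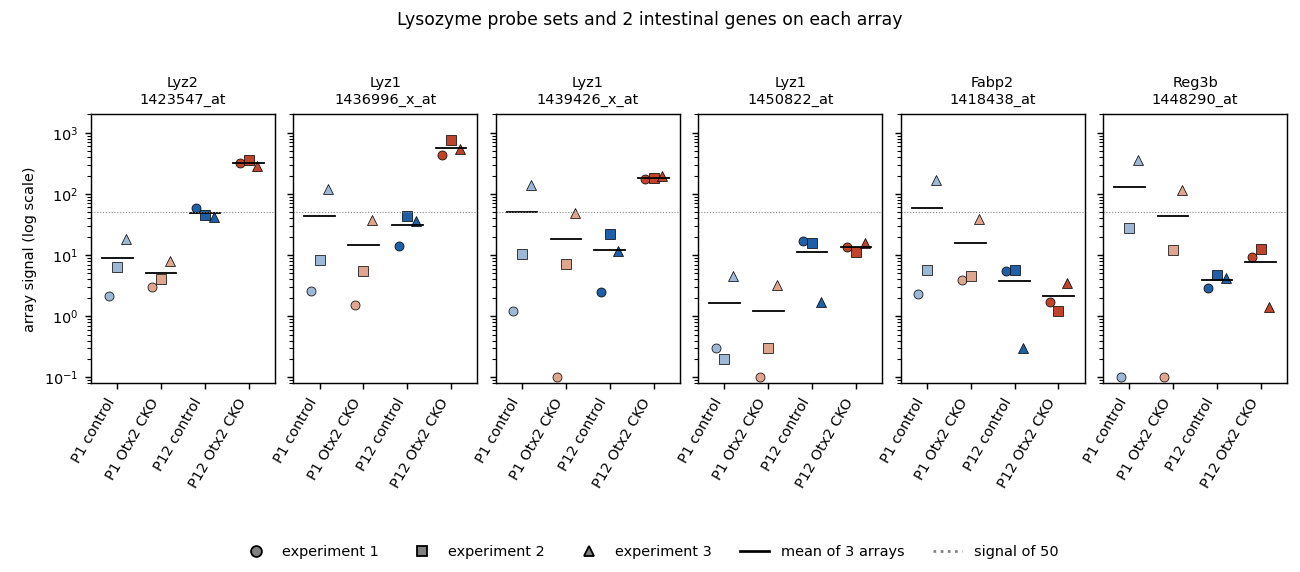
Array signal (log scale) of the *Lyz2* probe set, the 3 *Lyz1* probe sets and the intestinal genes *Fabp2* and *Reg3b*, with symbols for the experiment number and bars for the mean of 3 arrays. At P1 the experiment 3 arrays of both genotypes (triangles) are the highest in each panel, and at P12 the *Otx2* CKO arrays are high for *Lyz2* and the *Lyz1* x_at sets but not for 1450822_at, *Fabp2* or *Reg3b*.

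*Ctsd* and *Ctsz* are general lysosomal proteases. Cathepsin D is the main aspartic protease of lysosomes and is abundant in neurons and pigment epithelium, and cathepsin Z is a carboxypeptidase prominent in cells of the monocyte lineage. For *Ctsd* the P12 controls had 640.2, 1495 and 739.8 and the *Otx2* CKO retinas 2035, 2536 and 1610.1. The groups did not overlap, but control replicate 2 came within reach of the lowest *Otx2* CKO array. The fold of the means was 2.15 (log2 change 1.17, SE 0.31, adjusted p = 0.02 from limma). *Ctsz* had 289, 808.5 and 428 in control and 998, 1536 and 950.4 in *Otx2* CKO retina, a 2.29-fold difference of means (log2 change 1.26, SE 0.34, adjusted p = 0.0242 from limma). The other *Ctsz* sets were also called, with log2 changes of 1.39 for 1417870_x_at and 1.2 for 1417869_s_at. Neither *Ctsd* nor *Ctsz* by its brightest set was called when *Otx2* CKO replicate 2, or replicate 1 or 3 of the controls, was left out (adjusted p-values of 0.0533 to 0.0818 from limma). *Ctsz* set 1417868_a_at was not called after any of 5 scalings, where its log2 change stayed positive, and *Ctsd* was called after 2 of the 5.

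*Ctsb*, *Ctsl*, *Ctsh* and *Ctsa* did not pass at P12. Cathepsins B, L and H are cysteine proteases of lysosomes in most cells, and cathepsin A is a carboxypeptidase that also protects beta-galactosidase and neuraminidase. *Ctsb* had 1118, 2534 and 1636 in control retina, against 2802, 2977 and 2386 in *Otx2* CKO retina. Control replicate 2 lay above the lowest *Otx2* CKO array, and the log2 change of 0.69 (95% interval 0.12 to 1.27) had an adjusted p of 0.0849 from limma. *Ctsb* was called with the experiment number as a block (adjusted p = 0.0263) and without control replicate 2 (0.00585). The other *Ctsb* sets had log2 changes of 0.75, 0.73 and 0.43, with adjusted p-values from 0.0553 to 0.178 in limma. *Ctsl* was 1041, 2290 and 1532 in the control and 2087, 2308 and 1839 in the *Otx2* CKO arrays, which overlapped (log2 change 0.42, 95% interval -0.15 to 0.997, adjusted p = 0.279 from limma). *Ctsa* was 222, 538.5 and 380.1 against 451, 519 and 454, and *Ctsh* 61.9, 197 and 140.3 against 153, 201 and 166. Their log2 changes were 0.39 (95% interval -0.20 to 0.97) and 0.45 (-0.21 to 1.12), with adjusted p-values of 0.324 and 0.311 from limma. The intervals of *Ctsl*, *Ctsa* and *Ctsh* hold both no change and a log2 change of 0.97, so these genes were not shown to be unaffected. Without control replicate 2, *Ctsl* and *Ctsa* were called too, with adjusted p-values of 0.0353 and 0.0476 from limma.

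The windows of *Ctsa* and *Ctsd* are shown as members of this general lysosomal set that hold TCACGTGA, the centre of the element read by TFEB in promoters of lysosomal genes. *Ctsd* has 1 match, starting 99 bases before the RefSeq start (chr7:142387778-142388077, minus strand). Of the 2 *Ctsa* windows in RefSeq, the one at chr2:164833523-164833822 on the plus strand has 2 matches, 13 bases before the start and at base 5 after it, and the other has none.
*Ctsd*: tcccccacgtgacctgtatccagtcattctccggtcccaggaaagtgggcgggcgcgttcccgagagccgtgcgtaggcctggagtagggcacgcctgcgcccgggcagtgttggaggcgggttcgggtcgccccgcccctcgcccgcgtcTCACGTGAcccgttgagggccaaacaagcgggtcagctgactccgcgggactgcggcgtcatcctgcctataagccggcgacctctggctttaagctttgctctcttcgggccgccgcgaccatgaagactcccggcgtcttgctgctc
*Ctsa*: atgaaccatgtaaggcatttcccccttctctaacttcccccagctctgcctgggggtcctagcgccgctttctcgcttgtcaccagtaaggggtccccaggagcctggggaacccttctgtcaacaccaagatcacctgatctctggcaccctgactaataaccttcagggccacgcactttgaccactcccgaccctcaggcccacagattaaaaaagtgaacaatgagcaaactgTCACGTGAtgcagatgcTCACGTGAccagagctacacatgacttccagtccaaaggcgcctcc
TCACGTGA, a palindrome shown in capitals, was in 0.974% of all 32851 windows. Its core CACGTG was in the *Ctsa*, *Ctsd* and *Ctsl* windows and in 7.15% of all. The longer form of the element, with 1 more base at each end, was in none of the 9 member windows and in 0.326% of all. The *Ctsa* and *Ctsd* windows thus hold the centre of the element and not this longer form. *Ctsd* was called at P12 and *Ctsa* was not. *Tfeb* had mean signals of 60.8 in control and 74.7 in *Otx2* CKO retina at P12, with a log2 change of 0.24 (adjusted p = 0.48 from limma).

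By the brightest set of each gene, the order of the arrays within a group recurred from member to member. In the control retina at P12, experiment 2 was the highest array for *Ctsa*, *Ctsb*, *Ctsc*, *Ctsd*, *Ctsh*, *Ctsl*, *Ctss*, *Ctsz* and *Lyz1*, and experiment 1 the lowest for the same genes. Within each experiment, by these sets, the *Otx2* CKO array was above its control for 9 of the 10 genes in 3 of 3 pairs, and for *Ctsa* in 2 of 3. *Ctsl* and *Ctsh* had ratios as low as 1.01 and 1.02. The other tested *Ctsh* set, 1443814_x_at, had ratios of 4.42, 0.82 and 0.89. The share of all genes in these orders was not computed, so they are not shown to be particular to the members. The median signal of the whole array was also higher in the *Otx2* CKO array of each pair (56 against 36.9, 25.4 against 24.3 and 32.5 against 27.6). As deposited, the ratio for *Ctsd* was 1.70 to 3.18 and that for *Ctsz* 1.90 to 3.46. The *Otx2* CKO array of experiment 1 had a median signal of 56, against 36.9 for its control, and the highest ratio of its experiment for 9 of the genes. After quantile normalization the ratios of the cathepsins lay closer together, and those of *Lyz2* lay further apart, at 5.51 to 7.94 before and 3.66 to 6.24 after. The normalized ratios were 1.82 to 2.06 for *Ctsd*, 1.99 to 2.08 for *Ctsz* and 1.64 to 1.79 for *Ctsc*. *Ctsb* kept a ratio of 1.33 to 1.41 in the 3 pairs, while *Ctsl* was at 1.10 to 1.14 and *Ctsa* at 1.01 to 1.11. *Ctss* was at 1.95 to 2.55 and *Ctsh* at 1.01 to 1.55. These ratios were computed after the array signals had been seen and carry no test.

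**Figure D4:**
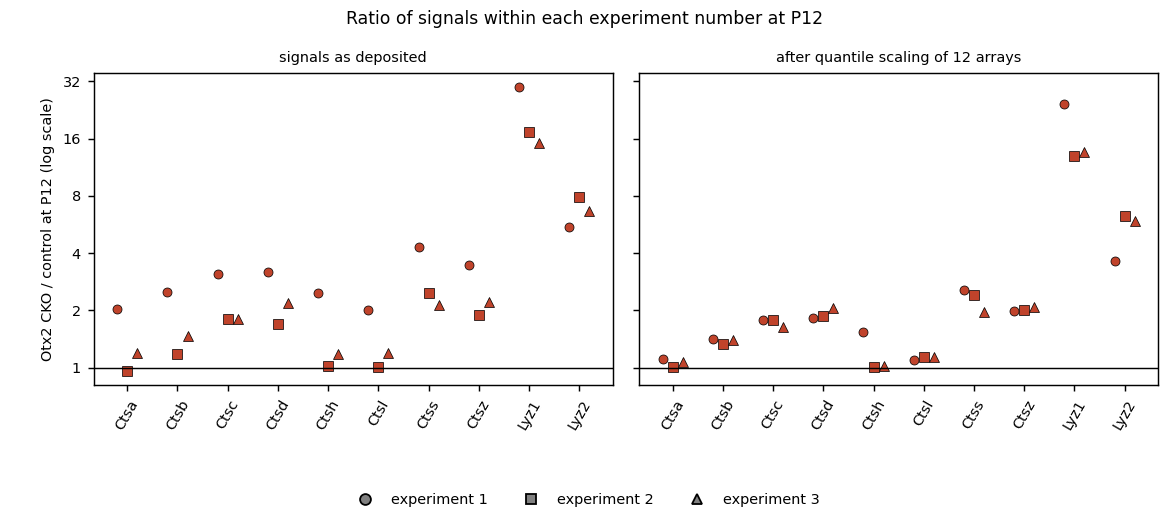
Ratio of the *Otx2* CKO to the control signal at P12 within each experiment number (log scale), for the signals as deposited and after quantile normalization of the 12 arrays. The 3 ratios of each cathepsin lie closer together after normalization, at 1.99 to 2.08 for *Ctsz* and 1.33 to 1.41 for *Ctsb*, while those of *Lyz2* spread from 3.66 to 6.24, and those of *Ctsa* and *Ctsl* lie close to 1.

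At P1 no member was called. Of the 10 genes 5 were bright enough for a test, *Ctsa*, *Ctsb*, *Ctsd*, *Ctsl* and *Ctsz*, and their log2 changes were -0.16 to 0.06. None passed limma's test and none had an unadjusted p under 0.05, where 0% of all genes tested were called higher and 0.251% lower and the median log2 change was -0.20. *Ctsb* had 192, 161 and 209 in control retina, against 182, 178 and 218 in *Otx2* CKO retina. *Ctsd* was 92.9, 115 and 134 against 95.5, 129.7 and 135, which overlapped as well. The 95% interval of the log2 change was -0.53 to 0.61 for *Ctsb* and -0.60 to 0.73 for *Ctsd*, so that a change as large as that of *Ctsd* at P12 lay outside it. *Ctss*, at 25.6, 23.8 and 41.3 against 34.8, 19.6 and 29.2, and *Ctsc*, at 41.6, 40.2 and 54.7 against 37.1, 36.2 and 42.7, were below the signal limit. *Ctsh* and *Lyz2* were at most 18 on every P1 array.

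The genotype effect was compared between the ages in the same fit. It was larger at P12 for *Lyz2* (difference of log2 changes 2.58, adjusted p = 0.000999 from limma), *Lyz1* (4.20, 0.021), *Ctss* (1.53, 0.038) and *Ctsc* (1.25, 0.0454), which is 4 of the 10 genes, where 3.94% of all genes were called in this direction. *Lyz1* and *Lyz2*, by their brightest sets, reached the signal limit only in P12 *Otx2* CKO retina. The count of 4 depended on the setting. It was 1 after quantile, trimmed mean or spike scaling, where that gene was *Lyz2*. It was 0 after median scaling or with an offset of 1, where *Lyz2* had adjusted p-values of 0.0512 and 0.0504. Over all probe sets, quantile normalization called 235 of 18643 higher, trimmed mean scaling 196 of 18551 and spike scaling 167 of 18633. Median scaling called 102 of 18929 higher and an offset of 1 called 343 of 21530. When the experiment number was blocked, the count among the 10 genes was 6, with *Ctsd* (adjusted p = 0.0171 from limma) and *Ctsz* (0.0017) added. With that block 6224 of 21530 probe sets were called higher, against 663 without it. Leaving out single arrays gave 1 to 7 genes, and 7 without P12 control replicate 2. That last fit called 2799 of 21674 probe sets higher. The *Lyz1* call was lost without P1 *Otx2* CKO replicate 1 or replicate 2.

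In the control retina the members rose with age along with most of the array. All 8 genes bright enough for a test were higher at P12 than at P1, with log2 changes of 1.60 for *Ctsz* to 3.06 for *Ctsb*, and 85.3% of all genes tested were called higher with a median log2 change of 1.5. A count at this background says nothing particular of the members. *Ctsh* went from 3.5 to 7.1 at P1 to 61.9 to 197 at P12, and *Ctss* from 23.8 to 41.3 to 286 to 430. After quantile normalization 6 genes were called and after median scaling 4, and the log2 change of *Ctsz* turned to -0.12 and -0.21. The background was lower there, with 3445 of 17636 and 2196 of 17949 probe sets called higher, against 15342 of 18560 as deposited. *Ctsb*, *Ctsc*, *Ctsh* and *Ctss* were called higher after each of 4 scalings. *Lyz2* was 2.1, 6.4 and 18 at P1 and 42.3 to 58.2 at P12 in the controls, under the limit on the mean.

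Other cathepsins and the cystatins that inhibit them were few on this array above the signal limit. Of 4 other tested genes of the cathepsins and legumain, *Ctso*, a little studied cysteine cathepsin, rose 2.34-fold (149.5 ± 18 to 350.0 ± 110, SD, n = 3 and 3 arrays, log2 change 1.11, adjusted p = 0.00893 from limma), and it was called after each of 4 scalings. *Ctse* (log2 change 0.52), *Ctsf* (-0.87) and *Lgmn* (-0.54), which encodes the asparaginyl protease that processes other cathepsins, did not pass. *Lgmn* was called lower after quantile normalization (log2 change -0.83, adjusted p = 0.0191 from limma) and spike scaling (-0.85, 0.0461), and not after median (0.277) or trimmed mean scaling (0.061). *Ctsg*, *Ctsk* and *Ctsw* were below the signal limit, with *Ctsk*, the cathepsin of osteoclasts, at 4.33 and 22.7. Among the cystatins, *Cst7*, which encodes the inhibitor cystatin F of immune cells and acts on cathepsin C, had a mean of 4.53 in control retina, too dim for a fold, and rose in *Otx2* CKO retina (log2 change 2.49, adjusted p = 1.86e-05 from limma). The study also chose *Cst7* on these arrays, so it is not independent evidence of the direction. *Cst3* (log2 change -0.28) and *Cstb* (0.21), the broadly expressed cystatins C and B, did not pass. *Cst6*, *Csta1* and *Stfa3* were below the limit.

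Of 31 tested lysosomal hydrolases and their cofactors 5 rose and none fell, which is the share of all genes called higher (16.1%), with a median log2 change of 0.49, and their counts after the 4 scalings were 0 to 3 higher and 0 to 2 lower. *Gusb*, beta-glucuronidase, rose 3.24-fold, *Ifi30*, the thiol reductase of antigen-presenting cells, 2.68-fold, *Npc2*, a cholesterol carrier, 1.96-fold and *Arsb*, arylsulfatase B, 1.97-fold. Median scaling left none of them called. Of 21 genes of the lysosomal membrane and its proton pump 4 rose and 2 fell, and 2 to 4 were higher after the 4 scalings. *Cd68*, a macrophage membrane protein, rose 5.96-fold (adjusted p = 6.52e-05 from limma), *Laptm5*, a protein of blood cells, 4.53-fold and *Slc11a1*, a metal transporter of macrophages, 3.32-fold. *Laptm4b* fell 2.50-fold and *Cln3*, the gene of juvenile neuronal ceroid lipofuscinosis, 2.69-fold, and both were called lower after each of 4 scalings. Of 15 genes of lysosomal sorting and transcription only *Grn*, progranulin, at 2.31-fold, and *Gga2*, a sorting adaptor, at 2.35-fold, rose, where 16.1% of all genes did. After median scaling neither was called (adjusted p = 0.237 and 0.117 from limma), and *Grn* was not called after trimmed mean (0.065) or spike scaling (0.0517).

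**Figure D5:**
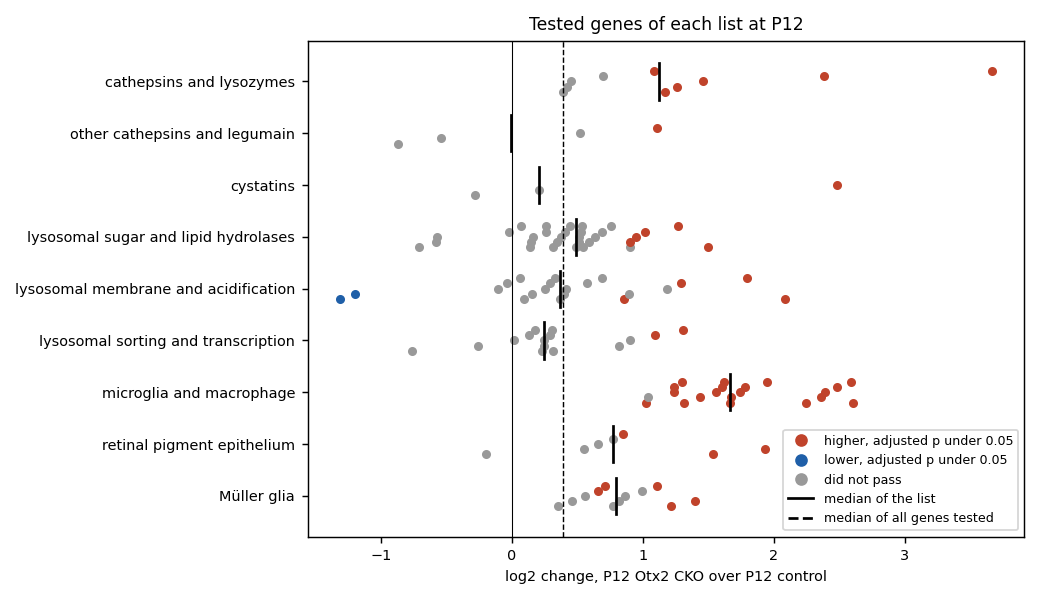
Log2 change at P12 of every tested gene of 9 lists, 1 probe set a gene, red for genes called higher, blue for lower and grey for those that did not pass, with a black bar at the median of each list and a dashed line at the median of all genes tested (0.39). The median was 1.13 for the cathepsins and lysozymes and 1.67 for the microglia and macrophage genes, of which only 7 reached the signal limit in control retina. It was 0.79 for Müller glia, 0.77 for pigment epithelium and 0.24 to 0.49 for lysosomal hydrolases, membrane and sorting genes. The cystatins were at 0.21 and the other cathepsins and legumain at -0.01.

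Markers of several cell types moved with the members at P12. Of 31 microglia and macrophage genes 21 were bright enough for a test at P12 and 20 rose, with a median log2 change of 1.67. The share of all genes called higher was 16.1%. Only 7 of the 31 had a mean of at least 50 in P12 control retina. The other tested genes passed the limit through the *Otx2* CKO group alone, so their direction was set by that limit. After 4 scalings 13 to 16 of 14 to 17 tested were higher. *C1qa* and *C1qc*, subunits of complement C1q, rose 7.16-fold and 6.97-fold, *Mpeg1*, a pore-forming protein of macrophages, 7.26-fold and *Tyrobp*, the signalling adaptor of TREM2, 6.36-fold. The summed signal of the list was 1107 to 1676 in P12 control and 5110 to 6002 in P12 *Otx2* CKO arrays, and all 31 genes had means under 50 at P1. The defining neutrophil genes stayed low, with mean signals at P12 of 0.90 to 17.4 in the *Otx2* CKO retina for *S100a8*, *S100a9*, *Mpo*, *Elane*, *Camp*, *Ltf* and *Ngp*, while *Csf3r*, the receptor for G-CSF, rose from a dim 9.43 to 65.1 and was under the limit for a test after each of 4 scalings.

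Some pigment epithelium and Müller glia genes moved as well. Of 7 tested pigment epithelium genes 3 rose, *Dct* 4.10-fold, *Tyrp1* 3.63-fold and *Tyr* 2.29-fold, which all make melanin. *Rpe65* (log2 change 0.77), *Pmel* (0.66), *Ttr* (0.55) and *Rgr* (-0.20) did not pass. *Tyr*, *Tyrp1* and *Rpe65* had means under 50 in P12 control retina and were tested through the *Otx2* CKO group alone. The summed signal of the 11 genes of that list was 907, 2955 and 1951 in P12 control replicates 1, 2 and 3 and 2524, 4722 and 2677 in the *Otx2* CKO replicates. The control arrays are thus in the same order as for each member but *Lyz2*. That order is not particular to pigment epithelium. It was also that of the summed microglia (1107, 1676 and 1168), Müller glia (7966, 13884 and 9405) and retinal genes (16925, 24728 and 21356). The neutrophil and monocyte genes had another order (258, 251 and 151). Of 12 Müller glia genes 5 rose, among them *Gfap* 2.86-fold, *Slc1a3* 2.57-fold, *Aqp4* 2.23-fold and *Sox9* 1.80-fold. After 4 scalings 1 to 3 of them were called, *Gfap* each time and *Aqp4* and *Sox9* never. Of the pigment epithelium genes 2 were called after each scaling, *Dct* and *Tyrp1*. The share of all genes called higher, as deposited, was 16.1%. The part of each of these cell types in the member signals was not tested. For scale, *Pde6b*, *Gnat1* and *Rcvrn*, genes of photoreceptors, fell 47.8-fold, 25.1-fold and 24.1-fold at P12, and *Isl1*, of bipolar and other inner neurons, 6.35-fold.

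Over the 12 arrays, which share the rise of the whole array with age, the correlation of log2 signals, as a description only, was 0.997 for *Ctss* with *Ctsc*. It was also 0.997 for *Ctsa* with *Ctsh*, and the lowest of any cathepsin pair was 0.951, for *Ctsh* with *Ctsz*. The correlation was lower for the lysozymes, at 0.682 to 0.842 for *Lyz1* and 0.865 to 0.948 for *Lyz2* with the cathepsins. Among 10860 genes *Ctss* was closest to *Dner*, *Nos1*, *Ctsc*, *Colgalt2* and *Fam217b* (0.997 to 0.998). *Ctsb* was closest to *Lamp5*, *Arhgap44*, *Tmem50b*, *Tmem59l* and *Bmerb1* (0.998 to 0.999), and *Lyz2* to *Zbtb46*, *Tyrobp*, *Brinp3*, *Enox1* and *Ntn4* (0.988 to 0.991). After quantile normalization *Ctss* kept 0.988 with *Ctsc* and fell to 0.875 with *Colgalt2*, and *Lyz2* kept 0.943 with *Tyrobp* and was at 0.747 with *Enox1*.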

How the data were processed

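The authors hybridized 5 µg of total retinal RNA per array and determined signal intensity with GeneChip Operating Software 1.4. The deposited intensity values are linear and not below 0, with no scaling target, normalization or test given in the sources used here, so array-wide shifts remain in them. Genotypes follow the titles and genotype fields, since a few description fields carry the opposite genotype. Of the probe sets, 34945 have 1 symbol in the platform annotation, 932 have several and 9211 are not named there.

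In R 4.3.3, limma 3.58.1 (lmFit, then eBayes with a trend) was fitted to log2(signal + 16) with the 12 arrays in 1 model of 4 groups. Probe sets with a mean of at least 50 in a compared group were tested, with Benjamini-Hochberg adjustment over all of them and a threshold of 0.05. A gene's call is that of its probe set with the highest mean signal. All members were named, with the other cathepsins and cystatins, up to 4 genes called in each other list by size of change, and the 5 genes most correlated with 3 members. Members and lists were chosen with earlier results of these data known. The script was tested on simulated data.

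Same-numbered arrays of the genotypes deviated together (r = 0.248, 0.179 and 0.311 at P1, 0.835, 0.891 and 0.555 at P12), so the number was used as a block in an alternative. Other alternatives were scalings, offsets, signal limits, each age alone, gene averages, no trend, a signal log ratio rule and leaving out arrays. Promoters are RefSeq windows of GRCm38.p6, aligned with Biopython 1.88 in Python 3.11.15. Figures used matplotlib 3.10.9.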

Additional observations from a re-analysis of the deposited data

Results flagged for a closer look

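The genotype effect differed between the ages by limma's test of the difference itself for 5 of the 17 probe sets of the members tested. Of all probe sets 663 of 21530 were called in this direction. *Lyz1* and *Lyz2*, by their brightest sets, reached the signal limit only in P12 *Otx2* CKO retina. The difference of the log2 changes, P12 minus P1, was 2.58 for *Lyz2*, 4.20 for *Lyz1* set 1436996_x_at, 1.53 for *Ctss*, 1.52 for *Ctsz* set 1417870_x_at and 1.25 for *Ctsc*. The adjusted p-values from limma were 0.000999, 0.021, 0.038, 0.0391 and 0.0454. The brightest *Ctsz* set, 1417868_a_at, had a difference of 1.42 that did not pass (adjusted p = 0.108 from limma), and passed with the experiment number as a block (0.0017). For *Lyz1* the P1 effect rests on arrays whose signal came almost wholly from experiment 3, and without both of these arrays its difference was 3.79 (adjusted p = 0.00838 from limma). *Ctss*, *Ctsc* and *Ctsz* set 1417870_x_at lost the call without these arrays, with adjusted p-values of 0.27, 0.293 and 0.218. Calls were also fewer over the whole array in that fit, with 58 of 21530 probe sets called higher.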

How the results depend on the processing

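At P12, the 10 genes kept a positive log2 change under every alternative run. *Lyz1* set 1436996_x_at, *Lyz2* and *Ctss* also kept their calls. The count called higher was 3 with median scaling and 3 with each age fitted alone, and 4 to 9 when single arrays were left out. Over all probe sets, median scaling called 798 of 17007 higher and each age alone 377 of 21390, against 3027 of 21390. For the difference between the ages the count among the 10 genes was 4. It was 1 with quantile normalization, 0 with median scaling, 1 with trimmed mean scaling, 1 with spike scaling and 0 with an offset of 1. It was 2 with no signal limit, 2 with both P1 arrays of experiment 3 left out (chosen after seeing the data) and 1 to 7 when single arrays were left out. With no signal limit 369 of 45037 probe sets were called higher, and without the experiment 3 arrays 58 of 21530. For P12 against P1 control the count among the 10 genes was 8, and 4 with median scaling. Over all probe sets that scaling called 2196 of 17949 higher, against 15342 of 18560. The replicate block gave 7 genes at P12, with *Ctsb* added, and 6 for the difference, with *Ctsd* and *Ctsz* added. At P12 it called 7757 of 21390 probe sets higher, against 3027 without it. For the difference it called 6224 of 21530, against 663. The block changed no other call of a gene by its brightest set. It could not be fitted for the ages, since the block was the experiment number within an age. The cause of these changes was not tested, except that leaving out arrays leaves fewer samples.

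Some small changes turned sign. At P1, *Ctsz*, *Ctsa* and *Ctsl* were at 0.016, 0.14 and 0.17 with quantile normalization, 0.049, 0.14 and 0.20 with median scaling, 0.045, 0.14 and 0.20 with trimmed mean scaling, 0.12, 0.20 and 0.27 with spike scaling and 0.022, 0.12 and 0.17 with quantile normalization within each age. There *Ctsb* was at -0.0016 with its probe sets averaged and *Ctsl* at 0.12 without the experiment 3 arrays. Leaving out single arrays gave *Ctsa* -0.14 to 0.0059, *Ctsb* -0.057 to 0.11, *Ctsd* -0.057 to 0.20, *Ctsl* -0.15 to 0.087 and *Ctsz* -0.34 to 0.023. The difference of *Ctsh*, *Ctsa* and *Ctsl* was -0.072, -0.060 and -0.0077 with quantile normalization, -0.11, -0.050 and -0.080 with median scaling, -0.098, -0.060 and -0.096 with trimmed mean scaling and -0.073, -0.12 and -0.16 with spike scaling, and that of *Ctsh* was -0.034 to 0.69 when single arrays were left out, with the lowest without P12 control replicate 1. With age, the *Ctsz* sets 1417868_a_at, 1417869_s_at and 1417870_x_at were at -0.12, -0.25 and -0.10 with quantile normalization, -0.21, -0.29 and -0.18 with median scaling and -0.085, -0.21 and -0.083 with trimmed mean scaling. None of these turned values passed the test.

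Probe sets near background have little precision here, and *Ctsh*, *Ctss*, *Ctsc* and the lysozymes were too dim at P1 for a test of their brightest set.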
